A study of Mus musculus with 4 samples.

Results

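The 10 genes of de novo lipogenesis described here were measured in mouse liver RNA-seq libraries: 7 enzymes or carriers (Slc25a1, Acly, Acss2, Acaca, Acacb, Fasn and Me1) and 3 regulators (Srebf1, Mlxipl and Thrsp). They were chosen by name, as the steps from mitochondrial citrate to palmitate and the factors best known for controlling them, and all 10 were found among the 15500 genes of the table. The libraries came from livers of Kunming mice, an outbred stock, in 4 conditions with 1 library each. Vehicle mice ate chow with 1.5% (w/w) linoleic acid (LA) and were the diet control, with vehicle injections where these applied. CLA mice ate chow with 1.5% (w/w) conjugated linoleic acid, an isomer mixture of the same fatty acid, for 28 days. GW6471 mice ate the LA diet and were given GW6471, an antagonist of the nuclear receptor PPARα, daily by intraperitoneal injection at 20 mg per kg body weight, for a time that the labels do not give separately. CLA+GW6471 mice ate the CLA diet for 28 days and were injected with the same antagonist. The methods describe male mice bought at 5 weeks of age, 1 week on chow before the diets, and livers taken at zeitgeber time 8. Each group held 6 mice according to the labels, and it is not stated whether a library was made from 1 liver or from several.

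De novo lipogenesis builds fatty acids from carbohydrate carbon. Citrate leaves the mitochondrion and is split into cytosolic acetyl-CoA, which is carboxylated to malonyl-CoA and then joined into palmitate by fatty acid synthase at the expense of NADPH. In liver, insulin drives the pathway through the membrane-bound transcription factor SREBP-1c and glucose drives it through ChREBP, while PPARα is best known for the opposite task, the burning of fatty acids in the fasted liver. The comparisons below asked how far the transcripts of the pathway differed between the CLA and the LA diet, between liver with and without the PPARα antagonist, and whether the CLA difference was of the same sign in the presence of the antagonist.

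With 1 library per condition there was no replicate error, and no difference was tested. Values are FPKM, which is scaled to transcript length and library depth, so that levels can be compared between genes. The 95% intervals given for a ratio of listed values are exact binomial intervals on read numbers estimated from FPKM, transcript length and an estimated depth of 18770000 to 19260000 reads per library. They cover counting error only, not the spread between mice. A gene was counted as higher or lower when log2(FPKM + 0.1) differed by at least 1.5-fold and its mean over the libraries was at least 1 FPKM, which 10355 genes and 7 of the 10 lipogenesis genes passed. Acacb, Mlxipl and Thrsp did not pass and are described by their values.

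The libraries were first held against markers of liver cells. Of 12 hepatocyte markers 11 were listed, and 6 of these had a mean under 1 FPKM. Alb, which encodes albumin, was listed at 680 FPKM for Vehicle, 1322 for CLA, 1067 for GW6471 and 620 for CLA+GW6471, and the liver transcription factor Hnf4a lay between 47.2 and 54.5 FPKM. Ttr, Fga, Cyp2e1 and Cps1, which define mature hepatocytes, were at or below 0.11 FPKM in every library, and Ppara itself lay between 0.06 and 0.15 FPKM. The most abundant transcript of the table was Sprr1a, a cornified-envelope protein of squamous epithelium, with a mean of 19942 FPKM. The data therefore go against the tissue label in part, and "liver" below is the label. No gene is deleted or overexpressed in this design, so no targeted gene can check which library received GW6471, and whether these labels are right was not tested. With the GW6471 and CLA+GW6471 columns exchanged, every sign of the comparison between them would turn. The other 2 comparisons with the antagonist would then be those of CLA+GW6471 with Vehicle and of GW6471 with CLA. The 7 counted lipogenesis genes ran from 0.846-fold (Fasn) to 1.03-fold (Acss2) in CLA+GW6471 against Vehicle. In CLA against GW6471 they ran from 1.08-fold (Acaca) to 1.33-fold (Slc25a1). Acss2 in CLA+GW6471 was 1.03-fold its Vehicle level, and in CLA it was 1.26-fold its GW6471 level.

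The genes lie on 6 mouse chromosomes (mm9, GENCODE vM1 annotation). Acaca (chr11:83943174-84215153, plus strand), Acly (chr11:100337667-100389314, minus), Fasn (chr11:120667254-120685492, minus) and Srebf1 (chr11:60012591-60036083, minus) share chromosome 11. Slc25a1 (chr16:17925304-17928312, minus), Acss2 (chr2:155343684-155411460, plus), Me1 (chr9:86474970-86589947, minus) and Thrsp (chr7:104561448-104566240, minus) lie apart, and Acacb (chr5:114596544-114700770, plus) and Mlxipl (chr5:135582761-135614254, plus) share chromosome 5. Each gene has 1 value per library. The Srebf1 value thus joins 4 RefSeq transcripts, and the SREBP-1a and SREBP-1c forms cannot be told apart.

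The sequences before the start sites of the 4 enzymes and carriers that were at least 1.5-fold higher in CLA than in Vehicle are shown because CCAAT boxes and GC boxes are the elements next to which SREBPs are known to act. They are RefSeq sequences of GRCm38.p6 that matched the mm9 genome exactly once, and they are written from 5′ to 3′ on the strand of the gene. Capitals mark every CCAAT or CCGCCC and their reverse complements, ATTGG and GGGCGG. The Acly sequence (chr11:100389315-100389564, minus) and the Slc25a1 sequence (chr16:17928313-17928562, minus) are the 250 bases before the start. The Acss2 sequence (chr2:155343529-155343683, plus) stops where an annotated exon begins, and of Fasn (chr11:120685916-120685945, minus) only 30 bases, 84 to 55 before the start, that end with the overlapping pair of CCAAT boxes are given. The starts are those of RefSeq, which for Acss2 and Fasn differ from the gene ends given above.
Slc25a1: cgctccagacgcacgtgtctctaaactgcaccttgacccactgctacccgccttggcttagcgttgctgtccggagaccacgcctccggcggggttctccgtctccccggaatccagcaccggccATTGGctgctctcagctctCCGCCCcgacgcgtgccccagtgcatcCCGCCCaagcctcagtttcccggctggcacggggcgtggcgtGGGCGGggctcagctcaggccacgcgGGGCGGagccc
Acly: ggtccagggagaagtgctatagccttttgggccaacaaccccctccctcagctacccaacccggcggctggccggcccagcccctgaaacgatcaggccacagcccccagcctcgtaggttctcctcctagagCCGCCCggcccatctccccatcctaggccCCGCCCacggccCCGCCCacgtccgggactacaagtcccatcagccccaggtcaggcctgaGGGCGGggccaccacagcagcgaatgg
Acss2: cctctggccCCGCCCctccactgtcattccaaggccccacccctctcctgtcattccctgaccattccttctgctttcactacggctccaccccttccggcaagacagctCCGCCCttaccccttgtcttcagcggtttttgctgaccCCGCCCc
Fasn: ccaccgagaacggcctcggtgtCCAATTGG

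The 10 genes had 14 annotated starts. Within 250 bases before a start, on either strand, CCAAT was found in 9 of the 14 windows, for 8 genes, against 33.8% of 32851 windows of all genes. CCGCCC was found in 7 windows, for 6 genes, against 32.7%. The sterol element TCACNCCAC was found in 1 window, that of Mlxipl, against 1.05% of all windows, and the E-box CACGTG in 2, those of Mlxipl and Slc25a1, against 6.02%. The direct repeat of 2 copies of AGGTCA with 1 base between them, the form of site bound by PPARα with its partner RXR, was found in none, against 0.0335% of all windows. Only exact copies were searched. They are so rare in all windows that none in 14 cannot tell whether these genes have such sites. These are matches of letters, and binding was not measured here.

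The supply of cytosolic acetyl-CoA was higher at transcript level in CLA than in Vehicle at each of its 3 genes. Slc25a1, the mitochondrial citrate carrier, was at 43.45 FPKM for Vehicle, 80.75 for CLA, 60.64 for GW6471 and 44.28 for CLA+GW6471. The CLA library was highest and GW6471 second, while Vehicle and CLA+GW6471 did not differ beyond counting error, with a ratio of 1.02 (95% interval 0.945 to 1.10). The CLA level was 1.86-fold that of Vehicle (1.74 to 1.99), the GW6471 level was 1.40-fold (1.30 to 1.50), and CLA+GW6471 stood at 0.548 of CLA (0.514 to 0.585). Acly, ATP citrate lyase, which cleaves the exported citrate, was at 45.43 FPKM for Vehicle, 70.77 for CLA, 58.51 for GW6471 and 40.24 for CLA+GW6471. It had the same order at the top, and CLA+GW6471 was below Vehicle by more than counting error, at 0.886 of it (0.845 to 0.928). Acly was 1.56-fold higher in CLA than in Vehicle (1.50 to 1.62) and CLA+GW6471 stood at 0.569 of CLA (0.545 to 0.593).

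Acss2, the cytosolic synthetase that makes acetyl-CoA from free acetate, had the largest ratio of the 7 counted genes in each of the 4 comparisons as labelled. With the antagonist columns exchanged, it would keep this place only in CLA against Vehicle and between the antagonist libraries. Acss2 was at 2.38 FPKM for Vehicle, 7.08 for CLA, 5.64 for GW6471 and 2.45 for CLA+GW6471, or an estimated 131, 390, 316 and 138 reads. The libraries thus fell into a low pair, Vehicle and CLA+GW6471, and a high pair, CLA and GW6471. The CLA level was 2.97-fold that of Vehicle (2.44 to 3.66) and the GW6471 level 2.37-fold (1.93 to 2.93), while CLA+GW6471 stood at 0.346 of CLA (0.282 to 0.420) and at 0.434 of GW6471 (0.352 to 0.530). Among the 10355 genes, Acss2 ranked 43 from the top in CLA against Vehicle and 30 from the top in GW6471 against Vehicle as labelled. In a ratio within each library, which no scaling between libraries can move, Acly was 19.1-fold as abundant as Acss2 for Vehicle, 9.996-fold for CLA, 10.4-fold for GW6471 and 16.4-fold for CLA+GW6471. The citrate route was therefore the more abundant of the 2 at transcript level throughout, by a smaller margin in CLA and GW6471.

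**Figure D1:**
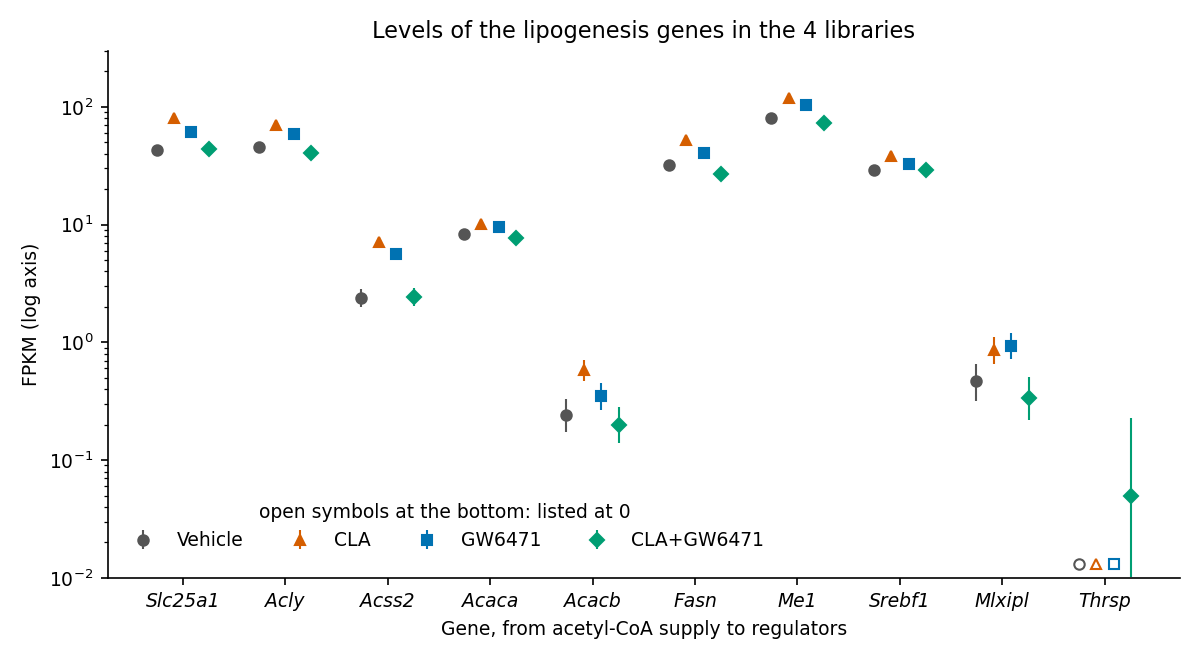
FPKM (log axis) of the 10 lipogenesis genes in the 4 libraries, with 1 symbol per library and bars for the 95% Poisson counting interval. For 8 genes CLA is the highest library, Mlxipl is highest in GW6471 (0.93 FPKM against 0.86 in CLA), and Thrsp, drawn as open symbols at the bottom where listed at 0, reaches 0.05 FPKM in CLA+GW6471.

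The 2 acetyl-CoA carboxylases make malonyl-CoA. Acaca, acetyl-CoA carboxylase 1, the cytosolic enzyme that feeds fatty acid synthase, was at 8.39 FPKM for Vehicle, 10.17 for CLA, 9.46 for GW6471 and 7.66 for CLA+GW6471. The order was that of Acly, but the whole range was narrow, 1.21-fold between CLA and Vehicle (1.13 to 1.30) and 0.753 between CLA+GW6471 and CLA (0.702 to 0.808). Acaca did not reach 1.5-fold in any comparison. Acacb, acetyl-CoA carboxylase 2, whose malonyl-CoA at the mitochondrial surface restrains fatty acid oxidation, was at 0.24 FPKM for Vehicle, 0.58 for CLA, 0.35 for GW6471 and 0.20 for CLA+GW6471, an estimated 34 to 96 reads. CLA was the highest library here too, at 2.42-fold Vehicle (1.64 to 3.56), while GW6471 was within counting error of Vehicle (1.46-fold, 0.955 to 2.22). Acaca was the main carboxylase of every library, 35.0-fold as abundant as Acacb for Vehicle, 17.5-fold for CLA, 27.0-fold for GW6471 and 38.3-fold for CLA+GW6471.

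Fasn, the multi-enzyme chain that makes palmitate, was at 32.01 FPKM for Vehicle, 52.43 for CLA, 40.69 for GW6471 and 27.07 for CLA+GW6471. The 4 libraries were each apart from the others by more than counting error, with CLA highest and CLA+GW6471 lowest. Fasn was 1.64-fold higher in CLA than in Vehicle (1.59 to 1.69) and 1.27-fold higher in GW6471 (1.23 to 1.32). CLA+GW6471 stood at 0.516 of CLA (0.499 to 0.534), at 0.665 of GW6471 (0.642 to 0.690) and at 0.846 of Vehicle (0.814 to 0.878). Against Acaca, the enzyme before it, Fasn was 3.82-fold for Vehicle, 5.16-fold for CLA, 4.30-fold for GW6471 and 3.53-fold for CLA+GW6471, so the synthase differed more between the diets than the carboxylase.

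Me1, cytosolic malic enzyme, turns malate left from citrate cleavage into pyruvate and yields NADPH. It was the most abundant of the 10 genes, with 80.72 FPKM for Vehicle, 119.47 for CLA, 104.81 for GW6471 and 73.72 for CLA+GW6471. Its order was that of Fasn, with all libraries apart beyond counting error. The CLA level was 1.48-fold that of Vehicle (1.43 to 1.53), just under the 1.5-fold limit, where Acly at 1.56-fold was just over it. CLA+GW6471 stood at 0.617 of CLA (0.595 to 0.640).

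The regulators were less uniform. Srebf1, which encodes SREBP-1, was at 28.92 FPKM for Vehicle, 38.10 for CLA, 32.63 for GW6471 and 29.07 for CLA+GW6471. CLA was 1.32-fold above Vehicle (1.25 to 1.39), GW6471 was 1.13-fold above it (1.07 to 1.19), and CLA+GW6471 did not differ from Vehicle beyond counting error (1.01-fold, 0.949 to 1.06). Its ratios were smaller than those of Slc25a1, Acly, Fasn and Me1 in all 4 comparisons as labelled. Mlxipl, which encodes ChREBP, was at 0.47 FPKM for Vehicle, 0.86 for CLA, 0.93 for GW6471 and 0.34 for CLA+GW6471, or an estimated 24 to 65 reads. CLA and GW6471 did not differ beyond counting error (0.925-fold, 0.637 to 1.33), nor did Vehicle and CLA+GW6471 (0.723-fold, 0.412 to 1.28), while CLA was 1.83-fold Vehicle (1.18 to 2.93).

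Thrsp, the Spot 14 gene, a strong lipogenic marker of liver and fat, was listed at 0 in Vehicle, CLA and GW6471 and at 0.05 FPKM in CLA+GW6471, about 1 read. A count of 0 allows up to 0.123 to 0.125 FPKM in the first 3 libraries, so no difference was detectable at this depth. Its paralog Mid1ip1, which promotes the assembly of acetyl-CoA carboxylase into its active polymer, was abundant in contrast, at 164.03 FPKM for Vehicle, 212.40 for CLA, 176.78 for GW6471 and 141.07 for CLA+GW6471. Mid1ip1 was taken from the list of SREBP and LXR control after its values were seen.

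**Figure D2:**
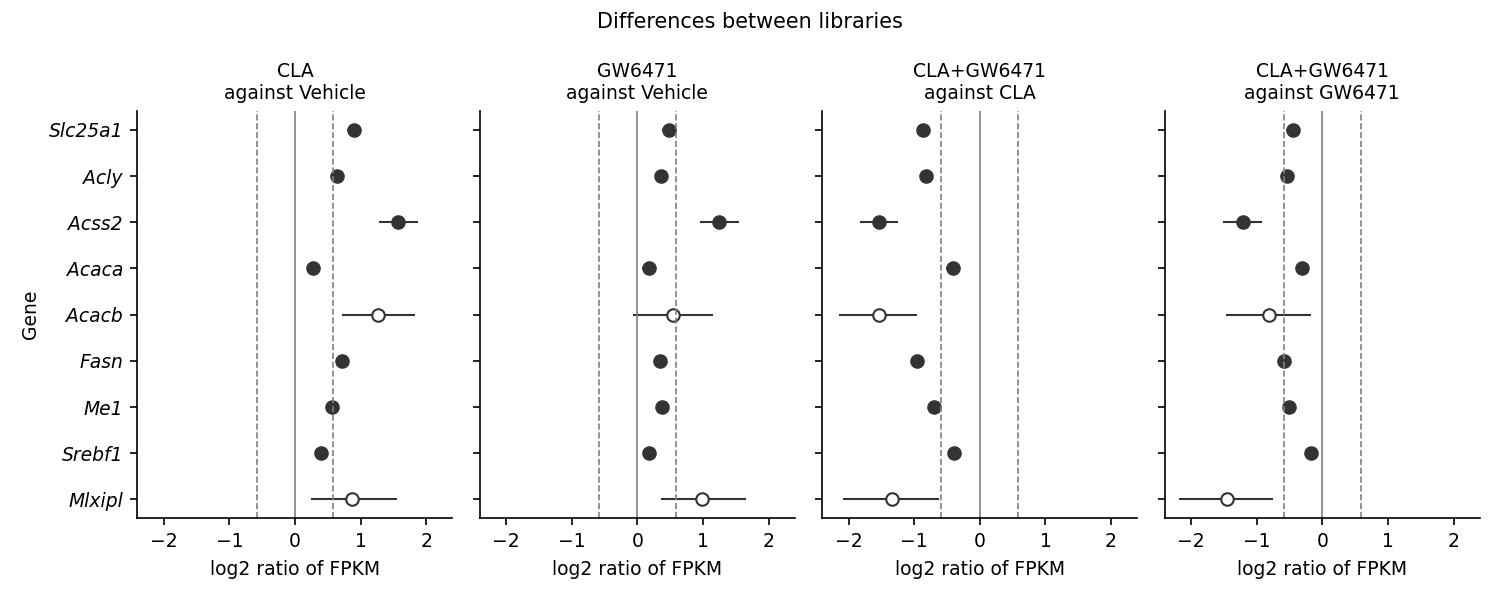
Log2 ratio of listed FPKM for 9 lipogenesis genes in 4 comparisons, with bars for the 95% counting interval, dashed lines at 1.5-fold, and open circles for Acacb and Mlxipl, whose mean was under 1 FPKM. Points lie to the right of 0 in CLA against Vehicle and in GW6471 against Vehicle, and to the left of 0 in both comparisons of CLA+GW6471, with Acss2 farthest out among the filled points.

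Counted together, 4 of the 7 genes with a mean of at least 1 FPKM were at least 1.5-fold higher in CLA than in Vehicle (Slc25a1, Acly, Acss2 and Fasn), against 7.3% of all 10355 genes, and 0 were lower, against 4.95%. The median log2 ratio of the 7 was 0.64, that of the 9 genes above 0 in every library was 0.71, and that of the 10355 genes was -0.0071. All 7 were higher by more than counting error, where 32.1% of 9688 genes with a known transcript length were. The hepatocyte markers were mixed. Their summed level was 1005 FPKM for Vehicle, 1865 for CLA, 1523 for GW6471 and 931 for CLA+GW6471, mostly Alb, Trf and Fgb. Of the 11 listed, 5 (Alb, Apoa1, Apob, Trf and Fgb) had CLA highest, GW6471 next and both others below, an order found in 21.9% of the 10355 genes and in 8 of the 10 lipogenesis genes. Hnf4a was highest in Vehicle, at 54.5 FPKM against 47.3 in CLA, and Tat was at 0.89 FPKM in Vehicle and 0.46 in CLA. The other marker lists spanned less, with summed levels of 24.9 to 28.7 FPKM for adipocyte (6 of 10 listed, Adipoq at most 0.08, with Lipe at 4.59, 8.45, 8.95 and 5.76 and Cidec at 5.19, 1.69, 2.32 and 4.85 in Vehicle, CLA, GW6471 and CLA+GW6471), 24.5 to 37.0 for macrophage (4 of 6 listed, Adgre1 at most 0.09), 1149 to 1507 for fibroblast or stellate cell (6 of 7 listed, nearly all of it Dcn) and 1585 to 1861 for epithelial cell (7 of 7 listed, mostly Krt8 and Krt18). Their part in the differences of the lipogenesis genes was not tested, and in such bulk RNA fewer cells of a type and less RNA per cell cannot be told apart.

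In GW6471 against Vehicle, both on the LA diet, 1 of the 7 genes was at least 1.5-fold higher, Acss2, against 3.28% of all genes, and 0 were lower, against 2.1%. The count of higher genes was 0 with a mean of at least 5 FPKM, against 2.07% of all genes, and 2 with no filter, against 5.2%. The median log2 ratio of the 7 was 0.36, against -0.0041 over all genes. All 7 were higher beyond counting error, where 27.5% of genes were. The ratios ran from 1.13-fold for Acaca and Srebf1 to 2.37-fold for Acss2. With all libraries scaled to the same FPKM sum, the shares of all genes became 3.87% higher and 1.57% lower. When CLA was set directly against GW6471, CLA was higher beyond counting error for all 7, from 1.08-fold for Acaca (1.01 to 1.15) to 1.33-fold for Slc25a1 (1.26 to 1.41), where 26.7% of genes were.

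Adding GW6471 to the CLA diet went with lower levels. In CLA+GW6471 against CLA, 5 of the 7 genes were at least 1.5-fold lower (Slc25a1, Acly, Acss2, Fasn and Me1), against 9.15% of all genes, and 0 were higher, against 6.84%. The median log2 ratio of the 7 was -0.81, against 0.0090 over all genes, and all 7 were lower beyond counting error, where 33.8% of genes were. This comparison and CLA against Vehicle share the CLA library. CLA+GW6471 was lower than Vehicle beyond counting error for 4 of the 7 (Acly, Acaca, Fasn and Me1), where 17.4% of genes were, and within it for Slc25a1, Acss2 and Srebf1.

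CLA+GW6471 against GW6471 asks about the CLA diet in antagonist-treated mice and shares no library with CLA against Vehicle. Here the sign was the other one. The sign depends on which antagonist library is which, and with their columns exchanged it would be that of CLA against Vehicle. Of the 7 genes 2 were at least 1.5-fold lower (Acss2 and Fasn), against 3.88% of all genes, and 0 were higher, against 2.81%. The count was 1, Acss2 without Fasn, with a pseudocount of 1, against 2.44% of all genes. It was also 1, Fasn without Acss2, with a mean of at least 5 FPKM, against 2.5%. With equal FPKM sums 3 of the 7 were lower, and the shares of all genes were 5.29% lower and 1.92% higher. The median log2 ratio of the 7 was -0.51, against 0.0041 over all genes, and all 7 were lower beyond counting error, where 30.3% of genes were. The CLA ratio with GW6471 minus that without it, on the log2 scale, was -2.70 for Acss2, -1.30 for Fasn and -0.56 for Srebf1, with a median of -1.18 over the 7. Acss2 and Fasn were at least 1.5-fold in opposite directions in the 2 comparisons, as were 4.4% of all genes. The change of sign was shared by most genes that differed. Of 756 genes at least 1.5-fold higher in CLA than in Vehicle, 712 (94.2%) were below 0 when CLA+GW6471 was set against GW6471, as were 5106 of all 10355, and 486 (94.7%) of the 513 at least 1.5-fold lower genes were above 0.

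**Figure D3:**
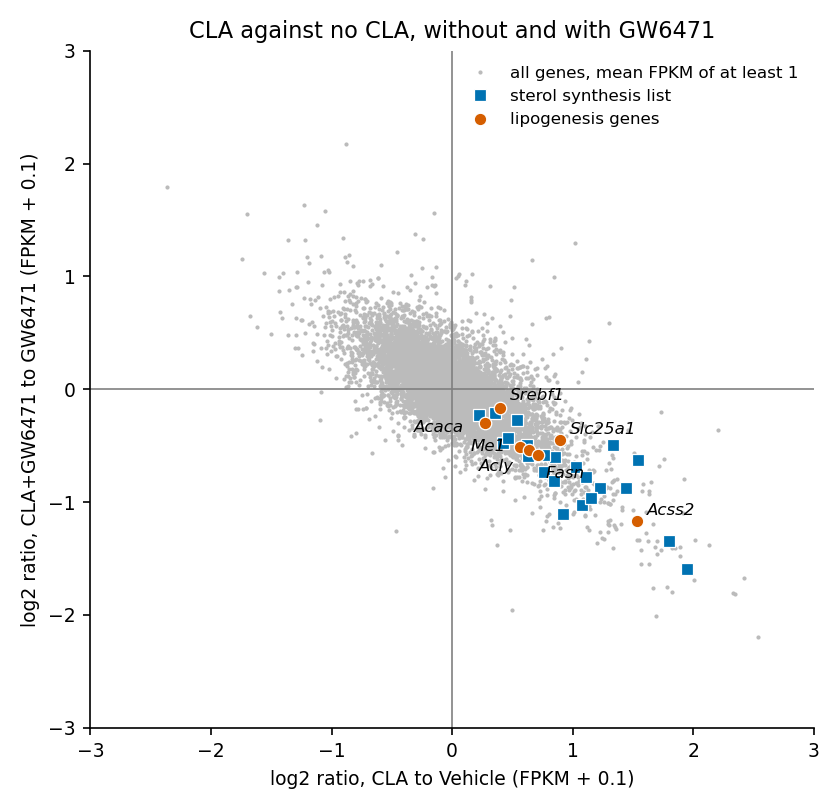
Log2 ratio of CLA to Vehicle (x axis) against log2 ratio of CLA+GW6471 to GW6471 (y axis), both of FPKM + 0.1, for genes with a mean of at least 1 FPKM, with 2 of the 10355 genes outside the axes. The 7 lipogenesis genes (orange) and the 22 sterol synthesis genes (blue) lie in the lower right part, along the downward slope of the whole cloud (grey).

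Read by library, CLA and GW6471 were both above Vehicle and CLA+GW6471 in 9 of the 10 lipogenesis genes, Thrsp being the exception. This way of counting was chosen after the values were seen, and 30.2% of the 10355 genes had the same pattern. The lists of neighbouring pathways were counted in the same way. The pattern was found in 21 of 22 sterol synthesis genes, 7 of 10 listed desaturases and elongases, 6 of 9 genes of NADPH supply, 5 of 9 listed ChREBP targets and sugar entry genes (1 of the 3 with a mean of at least 1 FPKM, Pklr), 5 of 17 genes of SREBP and LXR control and 4 of 13 genes of triacylglycerol synthesis.

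Among the other sources of NADPH, 3 of 9 genes were at least 1.5-fold higher in CLA than in Vehicle, against 7.3% of all genes, and 0 lower, against 4.95%, with a median log2 ratio of 0.38. Idh1, cytosolic isocitrate dehydrogenase, was at 43.75, 104.75, 79.63 and 41.26 FPKM in Vehicle, CLA, GW6471 and CLA+GW6471. The pentose phosphate enzymes followed, with 27.49, 54.56, 37.97 and 27.11 FPKM for Pgd and 31.26, 55.74, 41.12 and 28.09 for G6pdx, in the same order of libraries. Each of the 3 was thus highest in CLA. Idh1 and Pgd did not differ between Vehicle and CLA+GW6471 beyond counting error.

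The genes that handle SREBP and the related receptor LXR were also counted. Of the 17, 5 were higher in CLA than in Vehicle beyond counting error, near the share of all genes (32.1%). Another 4 were lower, a direction for which the share of all genes was not counted. Of 15 with a mean of at least 1 FPKM, 1 was at least 1.5-fold higher in CLA than in Vehicle, Insig1, against 7.3% of all genes, and 0 lower, against 4.95%, with a median log2 ratio of 0.03 that turned to -0.0013 with equal FPKM sums. Insig1, which holds SREBPs in the endoplasmic reticulum and is itself an SREBP target, was at 8.29 FPKM for Vehicle, 17.66 for CLA, 15.51 for GW6471 and 7.85 for CLA+GW6471. Prkaa2, a catalytic subunit of the energy sensor AMPK, was at 1.87, 1.28, 1.72 and 2.02 FPKM and Trib3, a pseudokinase, at 123.60, 90.93, 123.00 and 124.05 FPKM, in the same order of libraries. For these, CLA was the lowest library, and the other 3 lay close together. Srebf2, named here after its values were seen, encodes the sterol-oriented SREBP-2 and was at 73.41, 85.41, 87.62 and 70.45 FPKM, above Srebf1 in every library.

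The targets of ChREBP were poorly represented. Of 11 genes 9 were listed, 3 had a mean of at least 1 FPKM, and 0 of these were 1.5-fold higher or lower in CLA than in Vehicle, against 7.3% and 4.95% of all genes, with a median log2 ratio of 0.08, which was 0.40 over the 9 listed genes with no filter. Pklr, liver pyruvate kinase and a classical ChREBP target, was at 11.58 FPKM for Vehicle, 15.32 for CLA, 12.70 for GW6471 and 11.17 for CLA+GW6471. Txnip, a glucose-responsive thioredoxin inhibitor, was at 116.91, 102.85, 114.29 and 123.18 FPKM, and Tkfc, a kinase of fructose breakdown, at 6.68, 7.06, 6.03 and 6.14. Pklr thus had the listed order of most lipogenesis genes and Txnip the reverse. GW6471 was within counting error of Vehicle for Pklr (1.10-fold, 0.984 to 1.22) and for Txnip (0.978-fold, 0.944 to 1.01). So was CLA+GW6471 for Pklr (0.965-fold, 0.861 to 1.08).

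Downstream of palmitate, 5 of 10 listed desaturases and elongases were at least 1.5-fold higher in CLA than in Vehicle, against 7.3% of all genes, and 1, Fads3, was lower, against 4.95%, with a median log2 ratio of 0.55. Fads2, the delta-6 desaturase of polyunsaturated fatty acids, was at 31.46 FPKM for Vehicle, 83.97 for CLA, 72.56 for GW6471 and 35.10 for CLA+GW6471. Scd2, a stearoyl-CoA desaturase, was at 201.80, 385.81, 366.29 and 197.40 FPKM, and Elovl2, an elongase of long polyunsaturated fatty acids, at 0.80, 1.55, 1.40 and 0.56. In Fads2 and Scd2, CLA and GW6471 formed a high pair, as they did for Acss2. Elovl2 passed the filter only through these libraries, so its place in the count of 5 is not independent of them. In triacylglycerol synthesis 3 of 12 counted genes were higher and 0 lower, against the same shares of all genes, with a median log2 ratio of -0.04 that turned to 0.05 with a mean of at least 5 FPKM and to 0.03 with no filter. Those 3 were Gpam, which adds the first acyl chain to glycerol phosphate (6.86, 14.30, 11.43 and 6.47 FPKM), Lpin1, a phosphatidate phosphatase (6.48, 11.60, 9.51 and 6.03), and Mogat2, a monoacylglycerol acyltransferase (5.55, 8.39, 6.50 and 4.77). Dgat2, which adds the last acyl chain and is named after its values were seen, was at 1.65, 1.35, 1.93 and 3.28 FPKM, highest in CLA+GW6471.

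Sterol synthesis, the branch that competes for the same acetyl-CoA, was the list with the most genes counted. Of its 22 genes 17 were at least 1.5-fold higher in CLA than in Vehicle, against 7.3% of all genes, and 12 in GW6471 than in Vehicle, against 3.28%. In CLA+GW6471, 19 were lower than in CLA, against 9.15%, and 14 lower than in GW6471, against 3.88%, with 0 in the other direction in each. The medians of the log2 ratios were 0.89, 0.63, -1.01 and -0.66. With the antagonist columns exchanged, the 14 genes would be higher, and the others would be compared as CLA+GW6471 with Vehicle and GW6471 with CLA. The median was -0.064 in CLA+GW6471 against Vehicle (-0.0029 over all genes) and 0.31 in CLA against GW6471 (0.0066 over all genes). Acat2, which joins acetyl-CoA units at the head of the pathway, was at 3.14 FPKM for Vehicle, 12.44 for CLA, 6.88 for GW6471 and 2.22 for CLA+GW6471. Dhcr7, the last step to cholesterol, was at 9.46, 33.11, 24.81 and 9.74 FPKM, and Mvd, which makes isopentenyl diphosphate, at 4.58, 13.50, 7.94 and 5.10. Whether lipogenesis and sterol genes differ from each other was not tested.

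**Figure D4:**
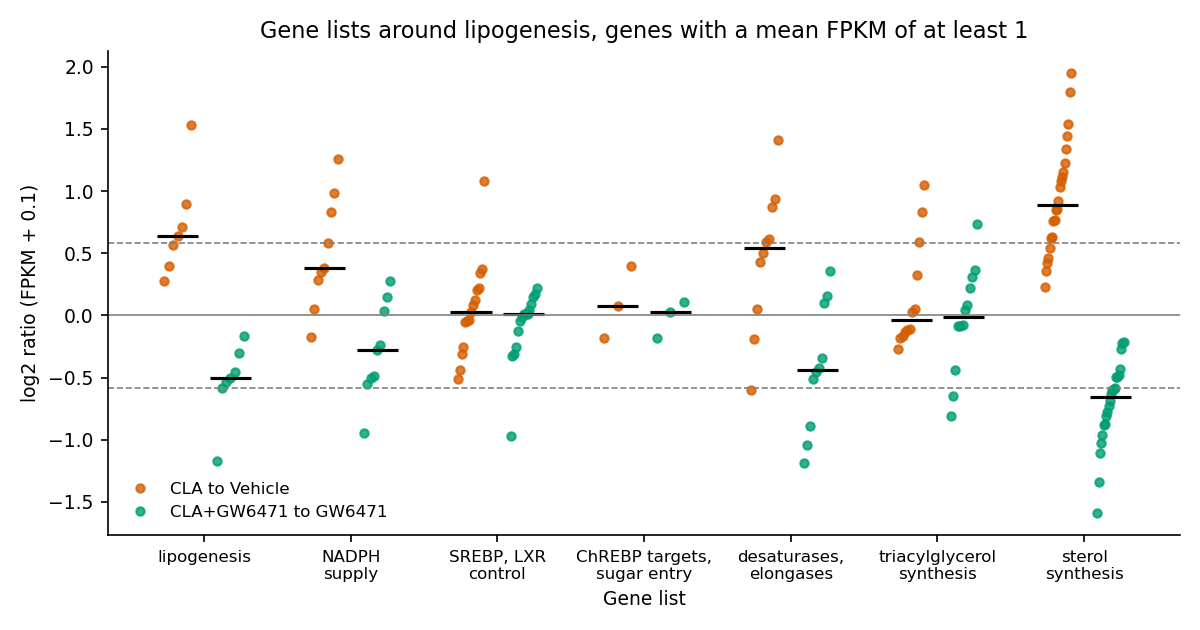
Log2 ratio of FPKM + 0.1 for each gene with a mean of at least 1 FPKM, by list, in CLA to Vehicle (orange) and CLA+GW6471 to GW6471 (green), with black bars for the medians and dashed lines at 1.5-fold. The medians of lipogenesis are 0.64 and -0.51 and those of sterol synthesis 0.89 and -0.66, while those of SREBP and LXR control lie near 0 in both.

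The genes with the profile nearest to the 2 most variable lipogenesis genes were sought among 8197 genes with a mean of at least 5 FPKM, by the Euclidean distance between centred log2(FPKM + 0.1) values over the 4 libraries. Mlxipl was the second most variable on this scale only. Without a pseudocount Acacb (0.20 to 0.58 FPKM) had the wider range. Nearest to Acss2 were Rab3a (distance 0.167), a GTPase of vesicle release, Fads2 (0.168) and Arrdc3 (0.219), an arrestin-domain protein. Nearest to Mlxipl were Cyp51 (0.149), the sterol demethylase, Slc7a11 (0.191), a cystine transporter, and Nt5e (0.218), a cell-surface nucleotidase. With 4 libraries the profile is short, and the 24 to 65 reads of Mlxipl leave its ratios with counting intervals wider than these distances.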

How the data were processed

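RNA was extracted from livers and sequenced with standard Illumina libraries, 1 for each of 4 conditions taken from the labels. The submitters' notes name BWA, Bowtie, Cufflinks and the mm9 build, and their versions are not stated there or in the RNA-seq methods. The authors deposited FPKM with 2 decimals for 15500 genes, 1 column per library, and no source used here gives the rule that selected these genes. The file itself names no unit, and FPKM is the heading the authors gave to the same values in a supplementary sheet. All 4 columns were used. Of the genes, 107 carried no symbol and 2749 were listed at 0 in at least 1 library.

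FPKM were compared as log2(FPKM + 0.1), after a filter on the mean (at least 1 FPKM) and with a 1.5-fold limit. Read counts were not used here. Depth was estimated for each library from the steps between the low values of 499 short genes with 1 transcript, which were whole multiples of 1 read for some of the values only (a score that is 1 when all values are whole reads was 0.481 to 0.551), so intervals are approximate. Gene lengths and positions came from GENCODE vM1 on mm9, with the longest coding transcript as the length. Promoters came from RefSeq (GRCm38.p6) and were placed on mm9 by exact match. A count of 0 allows up to 3 reads. Intervals were exact (Clopper-Pearson for ratios, Poisson for levels, 95%). Tables and intervals were made with scipy 1.17.1, pandas 2.3.3 and numpy 2.4.6 under Python 3.11.15 and figures with matplotlib 3.10.9, and the scripts were tested on simulated data. Alternatives were other pseudocounts, filters, fold limits and scalings.

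The members and lists were chosen with earlier results of these data known. Named were all 10 members, the 3 genes of each neighbouring list with the largest absolute log2 ratio of CLA to Vehicle (mean of at least 1 FPKM), and the 3 nearest profiles of the 2 members with the widest range.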

Additional observations from a re-analysis of the deposited data

Results flagged for a closer look

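The CLA ratio was at least 1.5-fold in opposite directions without and with GW6471 for 12 of 25 genes (the 7 counted lipogenesis genes and 18 genes named from the neighbouring lists) and for the median of 1 list, against 4.4% of all 10355 genes. Of the 12, 10 were named because their CLA to Vehicle ratio was among the largest of their list, so the count is not independent of that choice. Elovl2, among the 12, passed the filter only through the CLA and GW6471 libraries. The values below are the log2 ratio of CLA+GW6471 to GW6471 minus that of CLA to Vehicle. The 2 ratios share no library, each rests on 1 library per arm, and the difference between them was not tested. With the columns of the 2 antagonist libraries exchanged, the 2 ratios of each of the 12 would have the same sign.

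Among the lipogenesis genes, Acss2 had 1.53 without and -1.17 with GW6471, a difference of -2.70, and Fasn had 0.71 and -0.59, a difference of -1.30. Among the partners, the difference was -2.20 for Idh1, -2.06 for Insig1, -2.46 for Fads2, -1.83 for Scd2, -2.06 for Elovl2, -1.86 for Gpam and -1.48 for Lpin1. In sterol synthesis it was -3.54 for Acat2, -3.14 for Dhcr7 and -2.17 for Mvd, and the median of the list was 0.89 without and -0.66 with GW6471, with a median difference of -1.69 over its genes.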

How the results depend on the processing

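Each condition had 1 library, so nothing here carries a replicate error, and mouse, extraction and library cannot be told apart from the treatment. No paired analysis was possible because each group has 1 library. Of 122 values for comparisons and lists under the alternatives, 114 stayed within 1.5 times the count, or moved a median by less than the margin of a gene's counting interval, and 155 of 160 ratios of single lipogenesis genes moved by less than their own margin. These limits pass medians that crossed 0 and a count of 4 that became 6. That is the count higher in CLA than in Vehicle with no filter, against 8.86% of all genes. The signs of 2 list medians near 0 in CLA against Vehicle turned, that of triacylglycerol synthesis from -0.04 to 0.05 with a mean of at least 5 FPKM and to 0.03 with no filter, and that of SREBP and LXR control from 0.03 to -0.0013 with equal FPKM sums. At a 2-fold limit, 1 of the 7 genes was higher in CLA than in Vehicle (4 at 1.5-fold), against 1.79% of all genes (7.3% at 1.5-fold). In CLA+GW6471, 1 was lower than in CLA (5 at 1.5-fold), against 2.67% (9.15% at 1.5-fold). In CLA+GW6471, 1 was lower than in GW6471 (2 at 1.5-fold), against 0.802% (3.88% at 1.5-fold). The last count was also 1 with a mean of at least 5 FPKM, against 2.5% of all genes, and with a pseudocount of 1, against 2.44%. It was 3 with equal FPKM sums, against 5.29%, and with no filter, against 5.74%. In GW6471 against Vehicle the count of higher genes was 1, against 3.28% of all genes. It was 0 with a mean of at least 5 FPKM, which removes Acss2, against 2.07%, and 2 with no filter, against 5.2%. The median log2 ratio of ChREBP targets in CLA against Vehicle was 0.40 with no filter, over 9 genes, and 0.08 over the 3 that passed it. Depth limits Acacb, Mlxipl and Thrsp, which rest on at most 96 estimated reads in a library.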
